A study of Mus musculus with 8 samples.

Results

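Myocardin, serum response factor (SRF) and the factors that work with or against them were followed at the transcript level in mouse aorta during and after angiotensin II (AngII) infusion. The set was chosen by gene symbol and held 9 transcription regulators of the smooth muscle phenotype, Myocd, Mrtfa, Mrtfb, Srf, Elk1, Klf4, Klf5, Klf2 and Gata6, out of 35896 genes in the count table. All 9 were found and passed the filter on low counts, as did 17182 genes in all. RNA of whole aortic tissue was sequenced in 8 libraries, with one piece of aorta from each of 2 mice pooled per library, so that 16 mice were sampled. The mice were male C57BL6, 11 weeks old at the start. The CTRL group (2 libraries) was untreated, and the AngII group (2 libraries) received AngII at 2.8 mg/kg/day by osmotic minipump for 2 weeks and was killed at the end of infusion. The AngII+2W and AngII+3W groups (2 libraries each) had the same infusion and were then left for 2 or 3 weeks without AngII. The labels name no transgene or deletion in any group. Per the study, controls were age-matched littermates killed at every time point, and the sample titles do not say which of these the CTRL libraries hold.

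SRF is a DNA-binding factor that sits on the CArG box, a short element found at many smooth muscle and growth-response genes. What SRF switches on depends on its partner. Myocardin, made in smooth and cardiac muscle, and the actin-sensing myocardin-related factors (encoded by Mrtfa and Mrtfb) drive contractile and cytoskeletal genes, while ternary complex factors such as Elk1 drive immediate early genes after ERK signalling and can displace myocardin. Klf4 and Klf5 are Kruppel-like factors linked to loss of the contractile state, Klf2 is the flow-responsive factor of endothelium, and Gata6 is a GATA factor associated with quiescent, contractile smooth muscle.

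Because the CArG box ties SRF to its targets, the stretches upstream of annotated starts were searched for it (CC, then 6 bases that are each A or T, then GG; the pattern reads alike on both strands). Of the regulators, 6 of 9 had a RefSeq promoter window, and the 250 bases before the start held a box in 1 of these 6, Srf itself. Boxes stood in 2 of 16 contractile genes with a window (Myl9 and Vcl), in 3 of 10 cytoskeletal genes (Actg1, Fhl1 and Fhl2) and in 1 of 6 immediate early genes (Egr2). Of all 27025 genes with a window, 1.62% had a box, and of all 32851 windows, 1.47% had one. The 3 stretches below are shown because they are the places where the letters of the SRF element lie next to a regulator or a contractile gene described here. They are RefSeq sequence of build GRCm38.p6, 5′ to 3′ in the direction of the gene, stopped at the annotated gene boundary, and the capitals mark the CArG boxes. The Srf stretch is chr17:46556176-46556412 on the reverse strand, and its 2 boxes begin 82 and 62 bases before the RefSeq start. The Myl9 stretch (regulatory light chain of smooth muscle myosin) is chr2:156775214-156775419 on the forward strand, with a box 161 bases before the RefSeq start. The Vcl stretch (vinculin, an adhesion protein) is chr14:20929148-20929397 on the forward strand, with a box 227 bases before the RefSeq start. The Srf and Myl9 stretches stop short of that start, because the gene begins earlier in GENCODE M21, and 237 and 206 of their 250 bases are printed, so that the boxes begin 69 and 49 bases (Srf) and 117 bases (Myl9) before the printed end.
Srf: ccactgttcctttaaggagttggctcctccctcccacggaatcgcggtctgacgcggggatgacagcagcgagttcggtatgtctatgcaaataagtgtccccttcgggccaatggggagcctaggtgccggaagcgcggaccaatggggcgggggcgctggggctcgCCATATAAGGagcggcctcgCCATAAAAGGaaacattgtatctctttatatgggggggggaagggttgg
Myl9: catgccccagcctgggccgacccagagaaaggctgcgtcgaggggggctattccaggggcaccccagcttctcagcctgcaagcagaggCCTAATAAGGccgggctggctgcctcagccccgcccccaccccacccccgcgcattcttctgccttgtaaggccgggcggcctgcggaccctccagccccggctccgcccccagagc
Vcl: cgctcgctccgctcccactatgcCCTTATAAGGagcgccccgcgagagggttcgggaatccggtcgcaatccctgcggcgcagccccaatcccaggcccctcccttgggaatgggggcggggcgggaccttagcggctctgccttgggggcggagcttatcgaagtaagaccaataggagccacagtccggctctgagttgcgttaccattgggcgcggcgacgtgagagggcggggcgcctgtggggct
A match is only a run of letters, and elements farther from the start or within introns were not searched. Elements that depart from this exact pattern were not counted, so a gene without a match may still have one nearby.

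Library totals lay between 18130441 and 21498200 counts, so that 3 counts equal 0.1395 to 0.1655 CPM, that is, counts scaled to a common library total. All further levels of single genes are CPM scaled by the trimmed mean of M values (TMM), and ± is the SD over the 2 libraries of a group. The tissue label was checked against marker lists. All 6 smooth muscle markers (Acta2, Tagln, Myh11, Cnn1, Smtn and Lmod1) and all 8 endothelial markers were above 3 counts in every library. Summed smooth muscle markers were 7377 and 9033 CPM in CTRL, 1669 and 2230 in AngII, 3557 and 3849 in AngII+2W, then 1575 and 3403 in AngII+3W. Summed fibroblast markers (7 genes) ran from 2586 to 3881 CPM in CTRL, 16290 to 27680 in AngII, 5445 to 7320 in AngII+2W and 1953 to 5388 in AngII+3W, and macrophage markers (7 genes) from 252.4 to 327.1, 639.5 to 1127, 437.3 to 455.3 and 201.1 to 375.2. Endothelial markers stayed between 995.1 and 1388 CPM in all 8 libraries. CTRL 1 and AngII+3W 1 stood apart by muscle of other kinds. Summed cardiac muscle markers (7 genes) reached 5172 CPM in CTRL 1 and 5625 in AngII+3W 1, against 84.89 to 2378 in the other libraries, and skeletal muscle markers (7 genes) reached 2368 CPM in AngII+3W 1 against at most 72.66 elsewhere. No marker of any of these lists was at 0 in every library. In bulk tissue, fewer cells of a type and less RNA per cell cannot be told apart, and the part of these shifts in the values that follow was not tested.

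At the end of infusion, Myocd, Srf and Gata6 were the regulators that fell, while the other 6 did not pass the test. Myocd was at 20.76% of its CTRL mean, Srf at 53.24% and Gata6 at 52.86%. These 3 of 9 were called by edgeR's quasi-likelihood test at a false discovery rate (FDR) below 0.05, all lower, where 5.1% of all tested genes were called and 2.2% were called lower. Scaled instead to the summed smooth muscle markers, an alternative chosen after seeing the data, the median of all genes moved to 2.1 on the log2 scale. Myocd was then at -0.11 and Srf and Gata6 at 1.2. Such a scaling moves all genes by about the same amount, so it cannot test where these 3 lie relative to that median. The markers also share genes with the contractile list described below. With that scaling Srf and Gata6 were called higher than in CTRL (FDR 0.0108 and 0.0093), as were 91.9% of all genes. In the main scaling the median log2 fold change of the 9 regulators was -0.26, against -0.008 over all genes tested. At an unadjusted p below 0.05, 3 of 9 were counted against 20.2% of all genes. The AngII and CTRL libraries did not overlap for 7 of the 9 regulators, against 49.2% of all genes. Of the 7, 5 were lower in AngII (24.9% of all genes) and 2 were higher (24.4%).

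**Figure D1:**
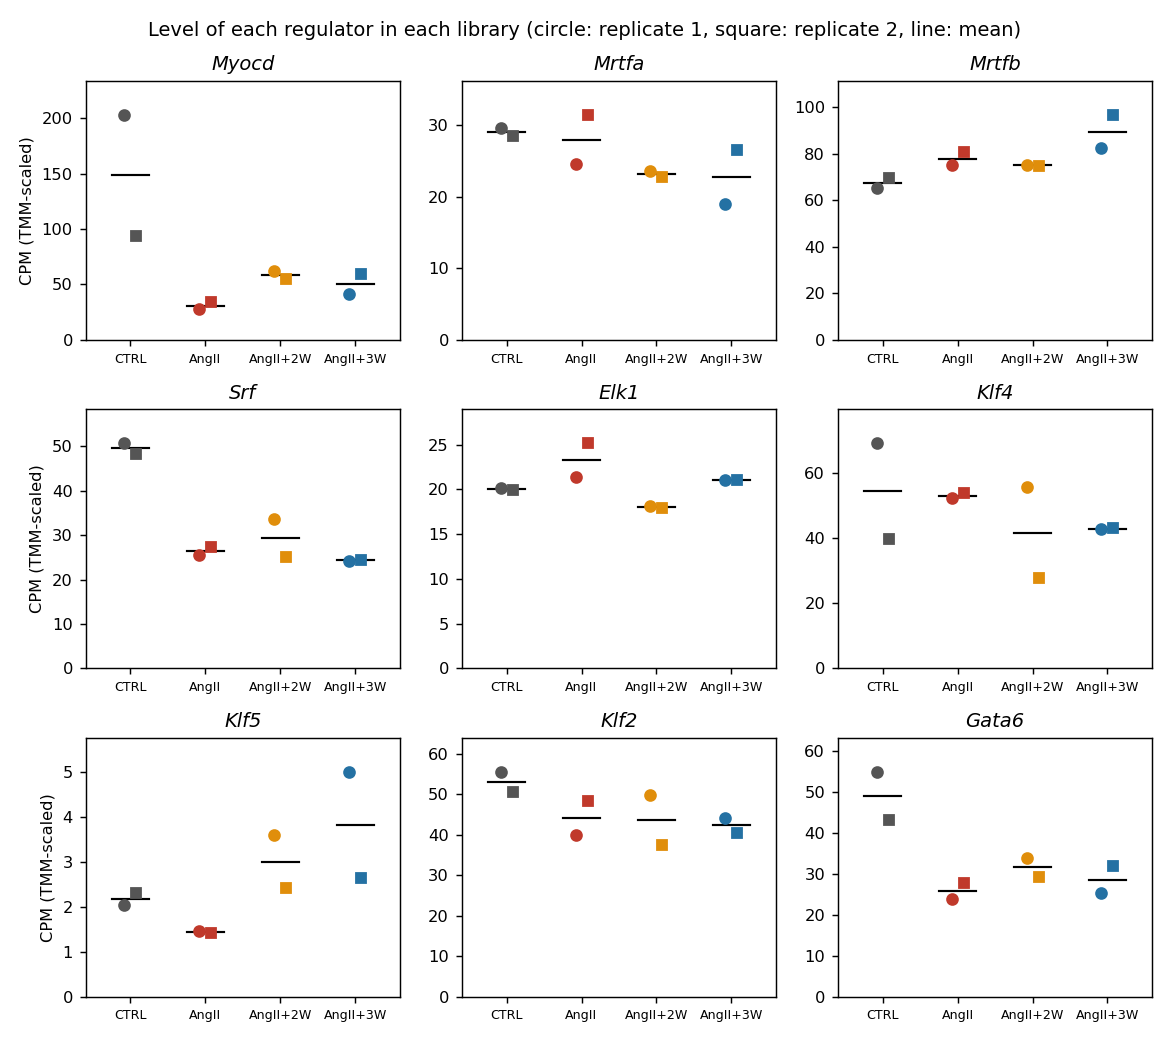
Level of each of the 9 regulators in each library, in TMM-scaled CPM on linear axes that start at 0, by group; circles are replicate 1, squares replicate 2 and the line is the group mean. Myocd, Srf, Gata6 and Klf2 lie below both CTRL libraries in all 6 AngII-exposed libraries, and the share of all genes that do so was not counted. The 2 CTRL values of Myocd (203.1 and 94.13 CPM) are far apart.

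Among the coactivators, Myocd (chromosome 11, 65176561 to 65269989, reverse strand, GRCm38) measured 203.1 and 94.13 CPM in CTRL, 27.91 and 33.79 in AngII, 61.89 and 55.36 in AngII+2W, then 41.34 and 59.26 in AngII+3W. Every AngII-exposed library was below the lower CTRL library, and both AngII libraries were below the 4 later ones. The AngII log2 fold change against CTRL was -2.27 (SE 0.353, 95% interval -3.09 to -1.45, edgeR FDR = 0.0174), a 4.814-fold lower level. CTRL 1, with the higher Myocd level, was also the CTRL library with more cardiac muscle counts, and without it the log2 fold change was -1.61 (edgeR FDR = 0.0659). AngII+3W 1, whose cardiac marker sum was higher still, had a Myocd level of 41.34 CPM. Its summed smooth muscle markers were 1575 CPM, against 9033 in CTRL 1. The part of cardiac muscle in the Myocd levels was not tested. The Myocd call was also lost without AngII 1 (log2 fold change -2.13) or AngII 2 (-2.41), fits in which fewer of all genes were called too. With both CTRL 1 and AngII+3W 1 left out, the AngII log2 fold change was -1.62 (edgeR FDR = 0.0061), in a fit where CTRL and AngII+3W are single libraries assumed to vary like the other groups.

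Mrtfa (chromosome 15, 81012281 to 81190757, reverse strand), which encodes an actin-regulated coactivator, measured 29.57 and 28.46 CPM in CTRL, 24.51 and 31.42 in AngII, 23.57 and 22.77 in AngII+2W, then 18.97 and 26.49 in AngII+3W. The AngII libraries lay on either side of the CTRL pair, and the 4 later libraries lay below it. Its log2 fold change at the end of infusion was -0.05 (95% interval -0.49 to 0.38, edgeR FDR = 0.916). Mrtfb, its paralogue (chromosome 16, 13256481 to 13417529, forward strand), measured 65.34 and 69.39 CPM in CTRL, 74.94 and 80.60 in AngII, 75.10 and 74.74 in AngII+2W, then 82.24 and 96.65 in AngII+3W. No AngII-exposed library was below CTRL, but the AngII log2 fold change of 0.21 (95% interval -0.08 to 0.50) did not pass the test (edgeR FDR = 0.415). Exons of Mrtfa overlap those of Sgsm3, which lies on the opposite strand and had at most 243 counts in a library.

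Srf (chromosome 17, 46548329 to 46556175, reverse strand) measured 50.72 and 48.41 CPM in CTRL, 25.49 and 27.29 in AngII, 33.70 and 25.18 in AngII+2W, then 24.30 and 24.34 in AngII+3W. Its 2 CTRL libraries were above all 6 others. The AngII log2 fold change was -0.91 (SE 0.152, 95% interval -1.26 to -0.55, edgeR FDR = 0.0208), and leaving out 1 library at a time gave -0.96 to -0.86, with FDR from 0.0148 to 0.148. The call was lost without CTRL 1 (log2 fold change -0.88), CTRL 2 (-0.95), AngII 1 (-0.86) or AngII 2 (-0.96). In these fits 1 group has a single library that is assumed to vary like the others, and fewer of all genes were called too.

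Elk1, the ERK-responsive SRF partner (chromosome X, 20933395 to 20950608, reverse strand), measured 20.17 and 19.99 CPM in CTRL, 21.38 and 25.16 in AngII, 18.11 and 17.88 in AngII+2W, then 21.02 and 21.01 in AngII+3W. The spread among groups was small, with a log2 fold change of 0.21 (95% interval -0.09 to 0.52, edgeR FDR = 0.425) in AngII. Elk1 exons overlap those of Uxt on the same strand, which had 160 to 219 counts per library, so that reads of the 2 genes may have been divided between them.

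Of the Kruppel-like factors, none of the 3 passed the test in AngII. Klf4 (chromosome 4, 55527143 to 55532466, reverse strand) measured 69.04 and 39.70 CPM in CTRL, 52.10 and 53.69 in AngII, 55.54 and 27.71 in AngII+2W, then 42.73 and 42.93 in AngII+3W. The CTRL libraries enclosed all others except AngII+2W 2, and the AngII log2 fold change of -0.04 had a 95% interval of -0.82 to 0.75 (edgeR FDR = 0.964), so that a change in either direction is within the interval. Klf2 (chromosome 8, 72319033 to 72321656, forward strand) measured 55.59 and 50.52 CPM in CTRL, 40.01 and 48.48 in AngII, 49.76 and 37.53 in AngII+2W, then 44.24 and 40.40 in AngII+3W. All 6 AngII-exposed libraries were below both CTRL libraries, but the difference did not pass the test (log2 fold change -0.26, edgeR FDR = 0.444). Klf5 (chromosome 14, 99298691 to 99315036, forward strand) was scarce, at 2.046 and 2.305 CPM in CTRL, 1.458 and 1.422 in AngII, 3.594 and 2.416 in AngII+2W, then 4.999 and 2.633 in AngII+3W, which are 27 to 93 counts per library. AngII was below CTRL and the later groups were above it, with a log2 fold change of -0.59 (95% interval -1.48 to 0.29, edgeR FDR = 0.444) in AngII. The nearest copies of Klf4 and Klf5 among annotated transcripts, Gm48640 and Gm6007, were at 0 counts in all 8 libraries.

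Gata6 measured 55.01 and 43.14 CPM in CTRL, 23.97 and 27.91 in AngII, 33.89 and 29.37 in AngII+2W, then 25.32 and 32.02 in AngII+3W. All 6 AngII-exposed libraries were below both CTRL libraries, as for Myocd, Srf and Klf2, and the share of all genes with this pattern was not counted. The AngII log2 fold change was -0.92 (SE 0.179, 95% interval -1.34 to -0.50, edgeR FDR = 0.0334). This call was lost with library totals alone (FDR 0.0583), where 3.62% of all genes were called. It was also lost without CTRL 1 (log2 fold change -0.73), CTRL 2 (-1.09), AngII 1 (-0.81), AngII 2 (-1.03), AngII+2W 1 (-0.92) or AngII+2W 2 (-0.92). Fewer of all genes were called in those fits too.

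After the infusion had ended, the same genes were compared with CTRL to ask how far they returned. In AngII+2W, 0 of the 9 regulators were called, as were 0.0% of all genes, whose smallest FDR was 0.174. At an unadjusted p below 0.05, 3 of 9 were counted against 10.7% of all genes, and DESeq2 and edgeR's likelihood ratio test each called 2, Myocd and Srf, where they called 2.17% and 2.44% of all genes. Values against CTRL in this comparison were a log2 fold change of -1.34 for Myocd (95% interval -2.13 to -0.55, edgeR FDR = 0.283), -0.75 for Srf (-1.10 to -0.40, FDR = 0.199) and -0.63 for Gata6 (-1.05 to -0.22, FDR = 0.301). The Myocd value depended on the CTRL libraries. It was -1.79 (FDR 0.0926) without CTRL 2, -0.67 (FDR 0.535) without CTRL 1, and -0.69 (FDR 0.122) without the 2 libraries with most cardiac muscle counts, with a single CTRL library in each of these fits. Group means of Myocd, Srf and Gata6 stood at 39.45%, 59.40% and 64.45% of CTRL. The 2 groups did not overlap for 8 of the 9 regulators, against 43.8% of all genes, and 6 of the 8 were lower (22.2% of all genes) and 2 higher (21.7%).

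In AngII+3W, 0 of 9 regulators were called by the quasi-likelihood test, against 0.285% of all genes. At an unadjusted p below 0.05, 4 of 9 were counted against 12.5% of all genes, and DESeq2 and the likelihood ratio test each called 3, where they called 3.7% and 3.24% of all genes. Srf was nearest to the threshold, with a log2 fold change of -1.03 (SE 0.153, 95% interval -1.38 to -0.67, edgeR FDR = 0.0547) and a mean at 49.06% of CTRL. It was called with every gene of at least 1 count (FDR 0.0231), where 0.819% of all genes were called. Srf was also called with genes of at least 10 counts in every library (FDR 0.0412, 0.791% of all genes). In the robust fit it was called too (FDR 0.0455, 0.407% of all genes). Without AngII+3W 2 its log2 fold change was -1.08. Myocd had a log2 fold change of -1.56 (95% interval -2.36 to -0.76, edgeR FDR = 0.115), which was -0.67 (FDR 0.207) without the 2 libraries with most cardiac muscle counts, when CTRL and AngII+3W are single libraries. Without CTRL 2 it was called, at -2.02 (FDR 0.0384), and without CTRL 1 it was -0.90 (FDR 0.302). Gata6 had a log2 fold change of -0.78 (FDR = 0.126) and a mean at 58.42% of CTRL. Mrtfb had a log2 fold change of 0.41 (95% interval 0.12 to 0.70, edgeR FDR = 0.237), and Klf5 one of 0.81 (-0.03 to 1.65, FDR = 0.418). The Klf5 value was 0.27 (FDR 0.861) without AngII+3W 1, the library with most cardiac and skeletal muscle counts, 1.14 (FDR 0.139) without AngII+3W 2, and 0.19 (FDR 0.888) without CTRL 1 and AngII+3W 1. The groups did not overlap for 8 of 9, against 38.1% of all genes, with 5 lower (18.3% of all genes) and 3 higher (19.8%). All 3 comparisons use the same 2 CTRL libraries.

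**Figure D2:**
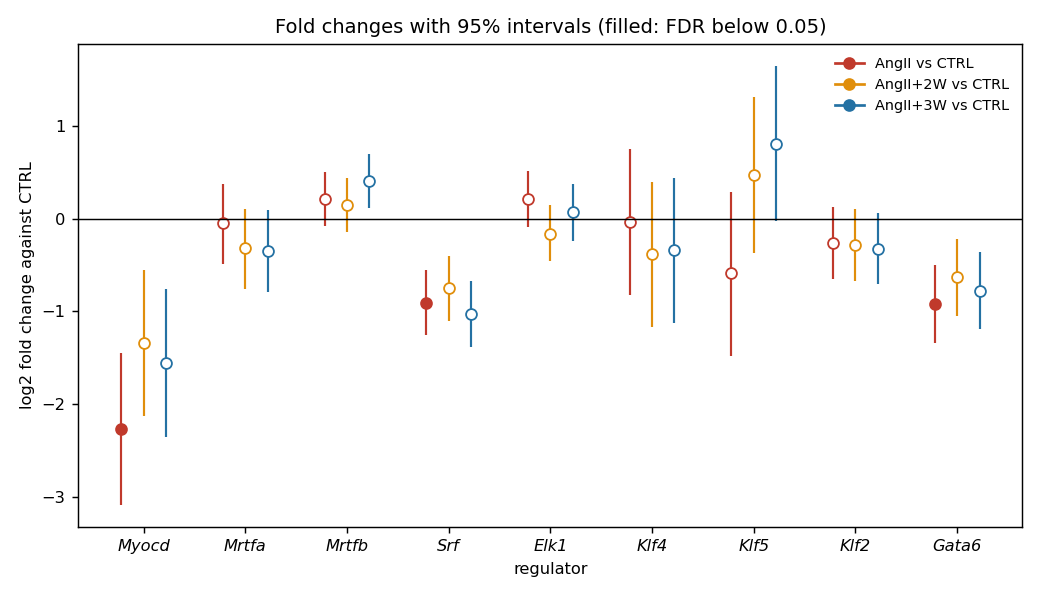
Log2 fold change of each regulator against CTRL in the 3 AngII-exposed groups, with 95% intervals; filled points passed an FDR of 0.05. The filled points are Myocd, Srf and Gata6 in AngII, and the Klf5, Myocd and Klf4 intervals are among the widest.

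Recovery was then tested directly between the AngII-exposed groups. Their mice started at the same age and were killed at different times, so time after infusion and age cannot be told apart. In AngII+2W against AngII, 0 of 9 regulators were called, against 0.163% of all genes, and 3 of 9 had an unadjusted p below 0.05, against 15.0%. Myocd had a log2 fold change of 0.93 (95% interval 0.13 to 1.72, edgeR FDR = 0.254). It was called when the fit held the 2 compared groups alone, with 5.34% of all genes called, and also when the 2 libraries with most cardiac muscle counts were left out, with 4.3% called. Srf had a log2 fold change of 0.16 (95% interval -0.20 to 0.51, edgeR FDR = 0.700). In AngII+3W against AngII, 0 of 9 were called, against 1.61% of all genes, with 1 of 9 at an unadjusted p below 0.05 against 17.8%. That gene was Klf5, with a log2 fold change of 1.40 (95% interval 0.53 to 2.27, edgeR FDR = 0.116). Myocd had 0.70 (95% interval -0.09 to 1.5, edgeR FDR = 0.333) in this comparison and Srf had -0.12 (-0.47 to 0.24, FDR = 0.725). Between AngII+3W and AngII+2W, 0 of 9 were called and 0 had an unadjusted p below 0.05 (0.0% and 8.83% of all genes), and DESeq2 and the likelihood ratio test also called 0, against 1.31% and 1.59% of all genes.

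**Figure D3:**
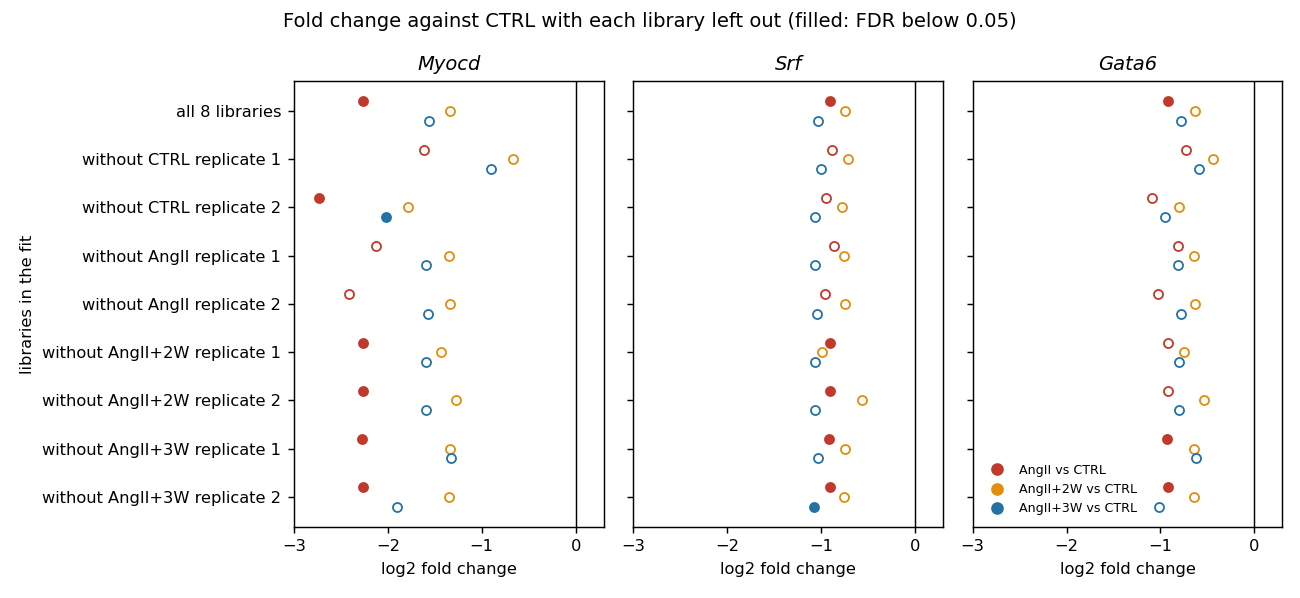
Log2 fold change of Myocd, Srf and Gata6 against CTRL with all 8 libraries and with each library left out in turn; filled points have an FDR below 0.05. All points lie below 0, Srf moves little in AngII (-0.96 to -0.86), and Myocd in AngII moves from -2.73 without CTRL 2 to -1.61 without CTRL 1.

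Levels of different genes were compared per kilobase of exon (CPM per kb). All annotated exons of a gene were counted, which can exceed the length of the transcript present, so the order across genes is approximate. In CTRL the order was Klf2 (28.73 ± 1.940, n = 2), Myocd (23.13 ± 11.99), Klf4 (17.83 ± 6.803), Srf (17.13 ± 0.5652), Gata6 (7.540 ± 1.290), Mrtfb (7.493 ± 0.3187), Mrtfa (4.746 ± 0.1288), Elk1 (3.732 ± 0.02334) and Klf5 (0.4183 ± 0.03518). Libraries of neighbouring genes overlapped from Klf2 down to Srf and between Gata6 and Mrtfb. In AngII, Myocd stood at 4.802 ± 0.6463 CPM per kb, below Mrtfb (8.651 ± 0.4453) and with libraries that overlapped those of Mrtfa (4.574 ± 0.7985). In AngII+2W it stood at 9.126 ± 0.7190, between Srf and Mrtfb, and in AngII+3W at 7.830 ± 1.973, between Srf and Gata6. The Myocd libraries overlapped those of Srf in both of these groups. Srf per Myocd, as a ratio of levels per kb, was 0.5546 and 1.142 in CTRL, 2.027 and 1.794 in AngII, 1.209 and 1.010 in AngII+2W, then 1.305 and 0.912 in AngII+3W. Only the 2 AngII libraries were above all others. Mrtfb per Myocd was 0.2299 and 0.5267 in CTRL, 1.918 and 1.705 in AngII, 0.8671 and 0.9648 in AngII+2W, then 1.422 and 1.165 in AngII+3W, so that all 6 AngII-exposed libraries were above both CTRL libraries.

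The genes that SRF and its coactivators are known to drive were described from lists. Contractile genes were the list with the most calls. Of 20 contractile genes, 14 fell and 0 rose in AngII (median log2 fold change -1.87), where 2.2% of all genes were called lower. In AngII+2W edgeR called 0 (median -1.08), with 17 of 20 at an unadjusted p below 0.05, against 10.7% of all genes, while DESeq2 called 13 (2.17% of all genes) and the likelihood ratio test 12 (2.44%). Scaled to the smooth muscle markers, which share genes with this list, 3 were called higher and 0 lower in AngII, where 91.9% of all genes were called higher. In AngII+3W 7 fell and 0 rose (median -1.27), where 0.268% of all genes were called lower. Acta2, the smooth muscle actin gene, measured 3057 and 2246 CPM in CTRL, 505.9 and 663.8 in AngII, 1184 and 894.8 in AngII+2W, then 349.7 and 550.4 in AngII+3W. It fell in AngII (log2 fold change -2.18, edgeR FDR = 0.0133) and in AngII+3W (-2.56, FDR = 0.0455). Synpo2, an actin-binding protein of muscle, fell by 2.16 and Myl9 by 2.08 on the log2 scale in AngII (edgeR FDR = 0.0053 for both). Myh11, the smooth muscle myosin heavy chain, fell in AngII (-2.26, edgeR FDR = 0.0172) and had -1.54 (FDR = 0.118) in AngII+3W. The contractile counts depended on single libraries. In AngII the count was 1 without CTRL 1, 4 without AngII 1, 0 without AngII 2, 9 with either AngII+2W library left out, 10 without CTRL 2 and 19 with either AngII+3W library left out. In AngII+2W it was 12 with either AngII+3W library left out and 0 with any of the other libraries left out, and in AngII+3W it was 13 without AngII+3W 2, 4 without CTRL 2 and 0 with any of the other libraries left out. The replicate block, library totals alone and the fit of 2 groups each gave 0 in AngII+3W, and 1 was called without the 2 libraries with most cardiac muscle counts.

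Cytoskeletal genes known as targets of the myocardin-related factors showed a smaller count. Of 13, 4 fell and 0 rose in AngII (median log2 fold change -1.26), where 2.2% of all genes were called lower. When scaled to the smooth muscle markers, 6 were called higher and 0 lower, where 91.9% of all genes were called higher. In the main scaling edgeR called 0 in AngII+2W (median -1.0) and AngII+3W (median -1.07), with 11 and 10 of 13 at an unadjusted p below 0.05 (10.7% and 12.5% of all genes). DESeq2 called 6 and 9 there (2.17% and 3.7% of all genes), and the likelihood ratio test 5 and 9 (2.44% and 3.24%). The 4 were Flna (-1.73, filamin), Zyx (-1.5, zyxin of focal adhesions), Tgfb1i1 (-1.26, the adhesion protein Hic-5) and Fhl1 (-0.97, a LIM protein), with edgeR FDR of 0.0357, 0.0375, 0.0467 and 0.0363. In AngII the count fell when any 1 CTRL, AngII or AngII+2W library was left out. It rose when 1 AngII+3W library was, and the count of all genes called did the same. With 1 library left out, the median ran from -1.35 to -0.73. Library totals alone called 1, and 3.62% of all genes. Within the list, Ankrd1 was at -3.6 in AngII+2W and -0.2 in AngII+3W, and Fhl2 at -1.89 and -0.03. Summed cardiac muscle markers were also lowest in AngII+2W (242.9 and 84.89 CPM), and the part of cardiac muscle in these values was not tested. Of 9 immediate early genes, which Elk1 and SRF drive after growth signals, edgeR called 0 in AngII, AngII+2W or AngII+3W (medians -0.73, -0.64 and -0.41). At an unadjusted p below 0.05 there were 3, 3 and 2, DESeq2 called 2, 1 and 0, and the likelihood ratio test 1, 0 and 0. In AngII these tools called 9.45% and 9.96% of all genes. Fos measured 38.25 and 16.28 CPM in CTRL, 7.289 and 13.79 in AngII, 12 and 5.799 in AngII+2W, then 16.61 and 19.99 in AngII+3W, with a log2 fold change of -1.37 (edgeR FDR = 0.17) in AngII. Egr1 had -1.18 (edgeR FDR = 0.0845). These values are set against a median of -0.008, -0.0 and 0.028 over all genes in AngII, AngII+2W and AngII+3W.

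**Figure D4:**
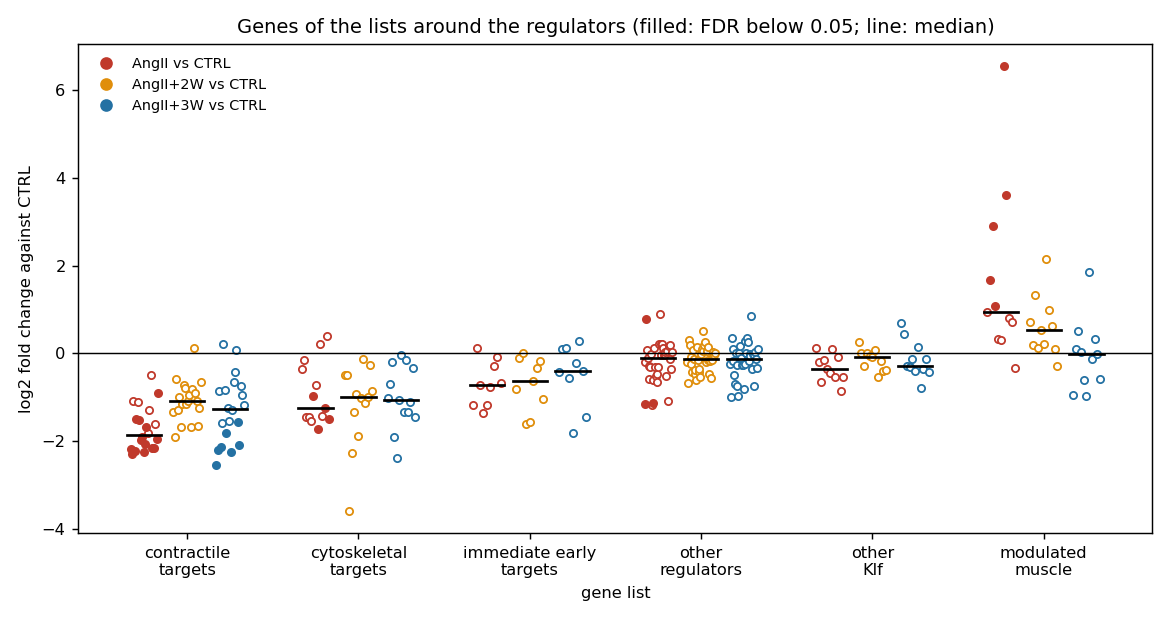
Log2 fold change against CTRL of each gene in 6 lists around the regulators, by comparison; filled points have an FDR below 0.05 and lines are medians. All 20 contractile genes are below 0 in AngII (median -1.87), and the other Klf genes hold no filled point.

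Other regulators of the smooth muscle state had few calls. They are read against 5.1% of all genes called by edgeR in AngII (9.45% by DESeq2) and 20.2%, 10.7% and 12.5% at an unadjusted p below 0.05 in AngII, AngII+2W and AngII+3W. Of 36, 35 were tested, and in AngII 2 fell (Csrp2, a LIM cofactor of SRF, by 1.16 and Heyl, a Notch target, by 1.14 on the log2 scale) and 1 rose. The latter was Elk3, a ternary complex factor of the Elk1 family, at 31.38 and 36.98 CPM in CTRL and 58.04 and 59.90 in AngII (log2 fold change 0.79, edgeR FDR = 0.0348). The median of the list was -0.11. In AngII 0 were called with library totals alone (3.62% of all genes), and 8 with DESeq2. The calls were also lost when any 1 CTRL, AngII or AngII+2W library was left out, where fewer of all genes were called too. In AngII+2W and AngII+3W edgeR called 0, with 4 and 8 of 35 at an unadjusted p below 0.05, DESeq2 called 0 and 3, and the likelihood ratio test 0 and 2. Of 14 other Klf genes, 11 were tested and edgeR called 0 in each comparison with CTRL (medians -0.36, -0.08 and -0.28), with 5, 0 and 5 at an unadjusted p below 0.05. DESeq2 called 0, 0 and 1, and the likelihood ratio test 1, 0 and 1. Klf8 had -0.85 (edgeR FDR = 0.111) and Klf12 -0.66 (FDR = 0.0853) in AngII. Of 5 other GATA genes, 4 were tested and edgeR called 0, with 0, 1 and 0 at an unadjusted p below 0.05 (DESeq2 called 0, 1 and 0, and the likelihood ratio test 0). The 3 endothelial genes known to follow Klf2 (Nos3, Thbd and S1pr1) had log2 fold changes of -0.04, 0.14 and -0.01 in AngII, with 0 called by edgeR, DESeq2 or the likelihood ratio test and 0 at an unadjusted p below 0.05.

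Genes that rise when smooth muscle cells leave the contractile state, in which Klf4 is implicated, were listed as 11 genes. In AngII 5 rose and 0 fell (median 0.95), where 2.9% of all genes were called higher. In AngII+2W (median 0.53) and AngII+3W (median -0.01) edgeR called 0, with 1 and 3 at an unadjusted p below 0.05 (10.7% and 12.5% of all genes), DESeq2 called 1 and 1 (2.17% and 3.7%), and the likelihood ratio test 0 and 1 (2.44% and 3.24%). In AngII the calls were lost when CTRL 1, CTRL 2 or AngII 2 was left out, and some were lost when either AngII+2W library was. Fewer of all genes were called in those fits too. With 1 library left out, the median ran from 0.87 to 1.2. The 5 were Spp1 (osteopontin, log2 fold change 6.55), Timp1 (3.61, a protease inhibitor), Lum (2.90, a matrix proteoglycan), Lgals3 (1.67, galectin 3) and Ly6a (1.09). Fibroblasts and macrophages also express genes of this list, Lum is in the fibroblast marker list, and the marker sums of both cell types were higher in AngII, as given above.

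The genes whose levels followed a regulator most closely over the 8 libraries were found by Pearson's r of log2 CPM among 15158 genes with a mean of at least 1 CPM. For Myocd these were Prkab2 (0.991), B3galnt2 (0.989), Cdc42ep3 (0.988), Mpdz (0.988) and Pcdh7 (0.987). Among the regulators, Gata6 was nearest to Myocd (r = 0.972, rank 21), Srf had r = 0.842 (rank 497) and Mrtfb had r = -0.536. Of the contractile genes, Myh11 had r = 0.959 (rank 53), Cnn1 0.923 (rank 163), Tagln 0.909 (rank 214) and Acta2 0.874 (rank 359). For Srf the nearest were Sfmbt2 (0.976), Usp42 (0.966), Actg2 (0.964), Qsox2 (0.964) and Pkdcc (0.96). Acta2 ranked 17 for Srf (r = 0.946), Cnn1 ranked 43 (r = 0.923), Tagln 69 (r = 0.913) and Myh11 330 (r = 0.835). Gata6 ranked 51 for Srf (r = 0.918) and Mrtfb had r = -0.763. The 8 points share group, depth and tissue makeup, so these values describe likeness only.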

How the data were processed

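Aortic RNA was prepared with a ribosomal RNA depletion kit. Per the labels and the study's methods, the authors quantified reads with Salmon (version not given in the sources used here) against GRCm38.p6, and deposited estimated counts per gene, given as whole numbers. Counts were fitted in edgeR 4.0.16 (R 4.3.3) over all 8 libraries with 1 coefficient per group, TMM scaling and filterByExpr. The older quasi-likelihood form was used, with Benjamini-Hochberg adjustment over 17182 genes and 4 residual degrees of freedom. The biological coefficient of variation was 0.202. Log2 CPM used a prior count of 2. The scripts were tested on simulated data. Alternatives used DESeq2 1.42.0, limma 3.58.1, other scalings, filters and left-out libraries.

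The members and lists were chosen with earlier results of these data known. All 9 regulators were named, with at most 4 genes per list by smallest p in AngII against CTRL, plus Acta2, Tagln, Myh11, Cnn1, Fos and Egr1, and the 5 genes most like Myocd and Srf. Spp1 and other genes outside that rule were named after their values were seen. Gene positions come from GENCODE M21, which held 98.7% of the gene identifiers. Depth was 18130441 to 21498200 counts per library. The sample titles do not tie libraries of different groups by number, and p-values measure the spread between pools of 2 mice. A further gene list is not reported here.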

Additional observations from a re-analysis of the deposited data

Results flagged for a closer look

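For 2 regulators, both libraries of one AngII-exposed group lay above both CTRL libraries and both libraries of another lay below them, and these contrasts are given as values. The share of all genes with this pattern was not counted. In the single comparisons with CTRL, 49.2% (AngII), 43.8% (AngII+2W) and 38.1% (AngII+3W) of all genes did not overlap. Elk1 was above CTRL in AngII (21.38 and 25.16 CPM against 20.17 and 19.99) and below it in AngII+2W (18.11 and 17.88). The direct log2 fold change of AngII+2W against AngII was -0.37, which did not pass the test (edgeR FDR = 0.242). Elk1 was again above CTRL in AngII+3W (21.02 and 21.01 CPM), and AngII+3W against AngII+2W gave 0.22 (edgeR FDR = 0.676). The AngII+3W libraries held 391 and 391 Elk1 counts, and the CTRL libraries 414 and 425. The TMM factor of AngII+3W 1 was 0.9295, the lowest of all libraries, so the order against CTRL depends on the scaling. Klf5 was below CTRL in AngII (1.458 and 1.422 CPM against 2.046 and 2.305) and above it in AngII+2W (3.594 and 2.416) and AngII+3W (4.999 and 2.633). Its log2 fold change was 1.06 in AngII+2W against AngII (edgeR FDR = 0.242) and 1.40 in AngII+3W against AngII (edgeR FDR = 0.116). These rest on 27 to 93 Klf5 counts per library. With 2 libraries a group, no single library could be tested as an outlier.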

How the results depend on the processing

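The 3 calls in AngII against CTRL (Myocd, Srf and Gata6) were also made with DESeq2's size factors, both other count filters, DESeq2, the likelihood ratio test, limma-voom, both other quasi-likelihood forms, the 2 groups alone and the replicate block, and 2 of them with library totals alone. The settings named here that kept all 3 called 4.63% to 9.96% of all genes, and library totals alone called 3.62%. Leaving out any 1 CTRL, AngII or AngII+2W library lost calls, in fits where fewer of all genes were called too. In AngII+2W against CTRL, DESeq2 and the likelihood ratio test each gave 2 calls, with 2.17% and 2.44% of all genes called. With 1 library left out, Myocd ran from -1.79 to -0.67 and Srf from -0.99 to -0.56 in this comparison. In AngII+3W against CTRL, DESeq2 and the likelihood ratio test each gave 3, with 3.7% and 3.24% of all genes called. The filters of at least 1 count and of at least 10 counts each gave 1 (0.819% and 0.791% of all genes). The robust fit also gave 1 (0.407%). With 1 library left out, Srf ran from -1.08 to -1.0 and Myocd from -2.02 to -0.9. In AngII+2W against AngII, the 2 groups alone gave 1, with 5.34% of all genes called. In AngII+3W against AngII, the likelihood ratio test gave 1 (Klf5, with 6.22% of all genes called). The count also rose when AngII+3W 2 was left out, as did that of all genes called. The cause was not tested.

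With 1 library left out at a time, Mrtfa ran from -0.24 to 0.12 in AngII, and Klf4 from -0.39 to 0.41 in AngII, -0.98 to 0.08 in AngII+2W and -0.7 to 0.1 in AngII+3W. Klf4 changed sign in AngII with library totals alone (0.00), limma-voom (0.02), the replicate block (0.02) and without CTRL 1 (0.41), and in AngII+2W without CTRL 1 (0.08) or AngII+2W 2 (0.03), and in AngII+3W without CTRL 1 (0.10). Mrtfa changed sign in AngII without AngII 1 (0.12). Replicate numbers came from different mice. Deviations of same-numbered libraries correlated between -0.045 and 0.248, and whether such libraries shared a preparation step was not tested. The replicate block moved no count of regulators called, and gave 3, 0 and 0 calls against CTRL. It moved the contractile genes called in AngII+3W from 7 to 0, and the share of all genes called there from 0.285% to 0.0233%.

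These alternatives were chosen after seeing the data. Without the 2 libraries with most cardiac muscle counts (CTRL 1 and AngII+3W 1), 1 regulator (Myocd) was called in AngII+2W against AngII and 1 (Myocd) in AngII+3W against AngII, with 4.3% and 1.28% of all genes called, and Klf4 was 0.40, 0.07 and 0.11 in the 3 comparisons with CTRL. Scaling to the summed smooth muscle markers moved the median log2 fold change of all genes to 2.1, 1.148 and 1.881 in AngII, AngII+2W and AngII+3W. The values that changed sign, to be read against these medians, were in AngII Mrtfa 2.04, Srf 1.2, Klf4 2.12, Klf5 1.5, Klf2 1.84 and Gata6 1.2, in AngII+2W Mrtfa 0.83, Srf 0.39, Elk1 0.99, Klf4 0.79, Klf2 0.87 and Gata6 0.53, and in AngII+3W Myocd 0.27, Mrtfa 1.43, Srf 0.83, Klf4 1.56, Klf2 1.56 and Gata6 1.05. With this scaling 8, 3 and 7 regulators were called against CTRL, all of them higher, as were 91.9%, 59.5% and 92.4% of all genes. Srf (FDR 0.0108) and Gata6 (FDR 0.0093) were among the 8 in AngII, and 2 (Elk1 and Klf4) were called lower in AngII+2W against AngII, where 14.1% of all genes were called. Myocd had -0.11 (FDR 0.808) in AngII.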
